A study of Mus musculus with 2 samples.

Results

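The aryl hydrocarbon receptor genes were 7 of the 43280 gene symbols counted in adult mouse hepatocytes. They were chosen by gene symbol as Ahr, Ahrr, Arnt, Cyp1a1, Cyp1a2, Cyp1b1 and Tiparp, and all were among the counted symbols. Poly(A) RNA was sequenced on an Ion Proton system from 1 library of mature hepatocytes (MHs) and 1 library of small hepatocytes (SHs), which are small cells regarded as hepatocyte progenitors. The cells came from collagenase-perfused livers of healthy C57BL6 mice, labelled as 20 weeks old, and both kinds of cell were taken from the same animals. MHs were the cells that sedimented first at low speed, were cleared of dead cells on Percoll, and were not sorted. SHs were taken from the supernatant, cleared in the same way, and sorted as CD31- CD45- EpCAM- ICAM-1+ cells. Per the methods the cells for sequencing came from several mice, and whether their RNA was pooled is not given in the sources used here. The methods also give a younger age for the mice than the labels do. The question behind the comparison was how the expression profile of SHs differs from that of MHs.

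Ahr is a transcription factor that is held in the cytoplasm by chaperones until it binds a ligand, such as dioxin, a polycyclic aromatic hydrocarbon or a metabolite of tryptophan. It then moves to the nucleus, pairs with Arnt, and binds response elements with the core GCGTG. In liver it is best known for the induction of Cyp1a1 and Cyp1a2, cytochrome P450 enzymes that oxidize such compounds. Ahrr and Tiparp are also induced and act back on the receptor, Ahrr by competing for Arnt and Tiparp by ADP-ribosylation. Cyp1a2 is present in hepatocytes without an added inducer and is known as a gene of the cells around the central vein.

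The sequences upstream of 4 members are shown first, because the targets of the receptor are known for this response element. A link between these sequences and the ratios of the 2 libraries was not tested. RefSeq entries on GRCm38.p6, which has the coordinates of mm10, were found for 6 of the 7 members, with Ahr as the exception. Each line gives the bases from 250 to 49 upstream of the RefSeq start, 5′ to 3′ on the strand of the gene, and capitals mark GCGTG or its reverse complement CACGC. The windows are chr9:57683704-57683905 on the minus strand for Cyp1a2, chr9:57697363-57697564 on the plus strand for Cyp1a1, chr3:65528197-65528398 on the plus strand for Tiparp and chr13:74292380-74292581 on the minus strand for Ahrr.
Cyp1a2: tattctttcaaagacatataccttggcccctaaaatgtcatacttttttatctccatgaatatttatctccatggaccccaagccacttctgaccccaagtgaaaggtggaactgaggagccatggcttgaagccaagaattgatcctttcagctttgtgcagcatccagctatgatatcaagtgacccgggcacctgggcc
Cyp1a1: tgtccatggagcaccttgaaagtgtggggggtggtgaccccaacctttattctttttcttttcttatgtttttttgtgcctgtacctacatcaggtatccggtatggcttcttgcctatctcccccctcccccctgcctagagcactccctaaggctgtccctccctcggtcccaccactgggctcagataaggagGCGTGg
Tiparp: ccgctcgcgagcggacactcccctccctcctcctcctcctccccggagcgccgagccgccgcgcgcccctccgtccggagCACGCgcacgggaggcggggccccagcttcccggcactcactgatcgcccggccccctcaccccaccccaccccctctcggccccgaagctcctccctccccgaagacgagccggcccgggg
Ahrr: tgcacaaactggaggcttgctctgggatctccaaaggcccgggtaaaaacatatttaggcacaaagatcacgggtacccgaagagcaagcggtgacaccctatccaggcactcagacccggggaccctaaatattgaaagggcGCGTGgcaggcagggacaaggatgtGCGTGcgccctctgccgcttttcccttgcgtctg

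In the 250 bases upstream of the start, searched on both strands, Cyp1a2 held no GCGTG. Cyp1a1 held 1, which began 54 bases upstream of the start, and Tiparp held 1 on the opposite strand, 170 bases upstream. Ahrr held 3, the last of them downstream of the stretch shown, and Arnt and Cyp1b1 held 1 each. The core was thus found for 5 of the 6 members. It was common elsewhere, in 28.2% of the 32851 RefSeq promoter windows of this length, and 3 or more copies were found in 2.77%. The windows of these 5 members had from 53.6% (Cyp1a1) to 75.2% (Tiparp) G and C. That of Cyp1a2 had 47.2%, and the median of all windows was 52.4%. The shares over all windows were not matched for this content. The longer form TNGCGTG, which includes the core, was found in Ahrr only among the members and in 4.10% of all windows. The motif CACGTG, which other proteins of the same family bind, was in none of the 6 members and in 6.02% of all windows. These matches describe letters in a short window and not binding. Cyp1a2 and Cyp1a1 are neighbours that point away from each other, with 13958 bases between their RefSeq starts, and most of that stretch lies outside the windows.

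Counted reads came to 16979136 for MHs and 42356444 for SHs. Levels are given as reads per 1000000 counted reads of the same library (RPM), with a 95% exact Poisson interval, and 3 reads, taken as the smallest detectable level, were 0.177 RPM in MHs and 0.0708 RPM in SHs. Ratios are log2 ratios of SHs over MHs after 0.5 reads were added to each count, with a 95% Clopper-Pearson interval. With 1 library of each kind there was no replicate and no test between SHs and MHs. Intervals and detection limits cover counting error only, and a difference between the libraries could not be told apart from a difference between preparations. In RNA from many cells, fewer cells that express a gene and less of its RNA in each cell also cannot be told apart. The hepatocyte label was met in both libraries, where the 10 hepatocyte markers summed to 92622 RPM in MHs and 95720 RPM in SHs. Their median log2 ratio was 0.00, with a range from -0.25 for Apob to 0.27 for Tat. Markers of other liver cells differed between the libraries and are given beside the results for the receptor.

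Of the 7 genes, 5 had at least 10 reads over both libraries. Ahr, Cyp1a2 and Cyp1a1 were at least 2-fold lower in SHs, with intervals under 0. Arnt was close to equal, and Tiparp was higher in SHs with an interval over 0. Ahrr and Cyp1b1 had too few reads for a ratio. The 3 members that were at least 2-fold lower stand beside a background of 4.46% of the 15521 genes with at least 10 reads, and 0 members were at least 2-fold higher, beside 2.00% of these genes. An interval under 0 was found for 3 members and for 15.5% of all genes, and an interval over 0 for 1 member and for 16.8%. Cyp1a1 had exactly 10 reads, 8 of them in MHs, and so passed the minimum through the library in which it was higher. Among the 10941 genes with at least 100 reads, which included 4 of the members, 2 members (Ahr and Cyp1a2) and 1.17% of the genes were at least 2-fold lower, and 0 members and 0.558% of the genes at least 2-fold higher. The median log2 ratio of the 5 members was -1.30, and that of all genes was 0.02. The plot of RPM shows how far the members differ in level.

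**Figure D1:**
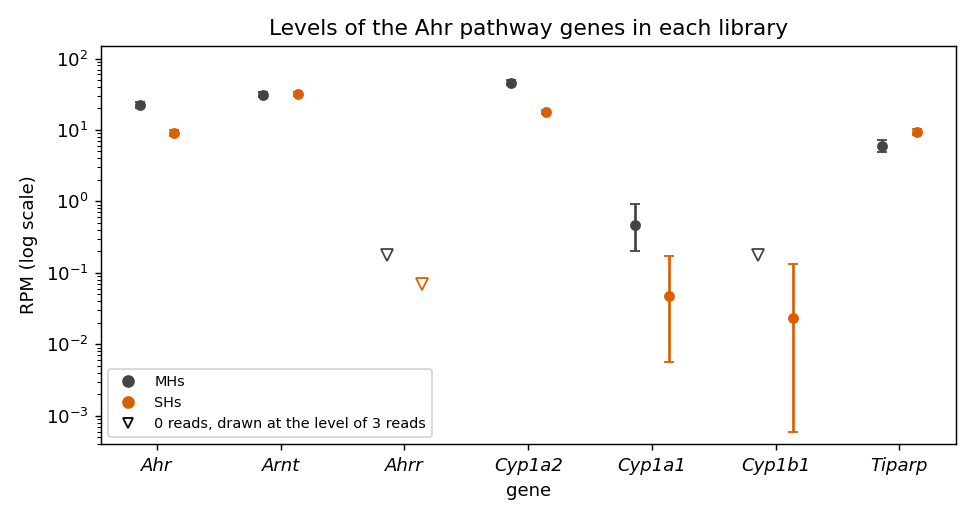
RPM on a log axis for the 7 genes in the library of MHs (grey) and the library of SHs (orange), 1 library each. Bars are 95% Poisson intervals, and open triangles mark genes with 0 reads, drawn at the level of 3 reads. Ahr, Cyp1a2 and Cyp1a1 lie lower in SHs, Arnt lies at 31.1 and 32.0 RPM, and Tiparp lies higher in SHs.

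Ahr, the receptor itself (chromosome 12, 35497974 to 35535038 of mm10, minus strand), had nearly equal reads in libraries of unequal depth, 378 among those of MHs and 383 among those of SHs. These reads were 22.3 RPM (20.1 to 24.6) in MHs and 9.04 RPM (8.16 to 9.99) in SHs, and the intervals did not overlap. The log2 ratio was -1.30 (-1.51 to -1.09), or 2.46-fold lower in SHs. Among genes with at least 100 reads, 0.795% had a lower ratio. A non-coding gene on the opposite strand, Gm48236, overlaps exons of Ahr and was not among the counted symbols, so that reads of both strands cannot be told apart where the counting ignored strand.

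Arnt, the partner that the receptor needs to bind DNA (chromosome 3, 95434388 to 95497240, plus strand), was counted 528 times in MHs and 1356 times in SHs. Its level was 31.1 RPM (28.5 to 33.9) in MHs and 32.0 RPM (30.3 to 33.8) in SHs. The log2 ratio was 0.04, and its interval, -0.10 to 0.19, included 0. A 2-fold difference in either direction lay outside that interval. The receptor and its partner therefore had unlike ratios. Arnt had 1.40 reads for each read of Ahr in MHs and 3.54 in SHs, a 2.53-fold difference in this ratio (95% interval 2.12 to 3.03).

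Ahrr, the repressor (chromosome 13, 74211118 to 74292331, minus strand), had no reads, 0 in MHs and 0 in SHs. The limit of 3 reads taken for a count of 0 is 0.177 RPM in MHs and 0.0708 RPM in SHs, and the upper ends of the exact intervals are 0.217 and 0.0871 RPM. The repressor was thus not detectable in either library, and no ratio can be given.

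Cyp1a2, the enzyme of this family that hepatocytes carry without an inducer (chromosome 9, 57676937 to 57683703, minus strand), had the most reads per length of the 7 genes. MHs gave 782 reads and SHs gave 757, which were 46.1 RPM (42.9 to 49.4) and 17.9 RPM (16.6 to 19.2). The log2 ratio of -1.37 (-1.51 to -1.22) corresponds to 2.58-fold lower in SHs. Its interval overlapped that of Ahr over most of its width. Cyp1a2 had 2.07 reads for each read of Ahr in MHs and 1.98 in SHs, and the quotient of these ratios was 0.955 (0.800 to 1.14). That interval included 1, and it does not hold a 1.5-fold change in the ratio of Cyp1a2 to its receptor.

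Cyp1a1, the enzyme that is induced most by ligands of the receptor (chromosome 9, 57687928 to 57703824, plus strand), was covered by 8 reads of MHs and 2 of SHs. These were 0.471 RPM (0.203 to 0.928) and 0.0472 RPM (0.00572 to 0.171), so that SHs lay under the level of 3 reads. The log2 ratio was -3.08 and its interval was wide, from -6.59 to -0.99, which also held the ratios of Ahr and Cyp1a2. For each read of Cyp1a1 MHs had 97.8 reads of Cyp1a2 and SHs had 378.5. The interval of the quotient, 0.769 to 37.5, included 1. A difference in the balance of both enzymes was not detectable at this depth.

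Reads of Cyp1a1 and Cyp1a2 can be confused with each other over part of their length. In the GENCODE M21 transcripts, 10.8% of the windows of 100 bases in Cyp1a2 matched Cyp1a1 with at most 2 mismatches, the limit the methods set for alignment. The read length is not given in the sources used here. The longest identical stretch is shown because a read that lies wholly within it could come from either gene. It has 137 bases, lies within the coding part of exon 2 of both genes, and is found at chr9:57682210-57682346 on the minus strand in Cyp1a2 and at chr9:57700283-57700419 on the plus strand in Cyp1a1.
Shared stretch: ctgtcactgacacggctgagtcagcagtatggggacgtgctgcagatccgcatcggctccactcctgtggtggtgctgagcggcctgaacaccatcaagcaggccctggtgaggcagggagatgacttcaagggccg

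Whether the few reads of Cyp1a1 came from that stretch cannot be seen from counts per gene. With 8 reads beside 782, and 2 beside 757, the value of Cyp1a2 would hardly move if all reads of Cyp1a1 belonged to it, whereas the value of Cyp1a1 is uncertain. Cyp1b1, the third enzyme of the family (chromosome 17, 79701537 to 79715061, minus strand), is known mainly from tissues other than the hepatocyte. The counts were 0 for MHs and 1 for SHs, and no window of 100 bases was shared with Cyp1a1 or Cyp1a2. Both libraries were under the level of 3 reads, so that no ratio is given.

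Tiparp, a target of the receptor that limits its activity (chromosome 3, 65528410 to 65555518, plus strand), was the only member that was higher in SHs with an interval over 0. MHs gave 102 reads and SHs gave 400, which were 6.01 RPM (4.90 to 7.29) and 9.44 RPM (8.54 to 10.4). The log2 ratio was 0.65 (0.34 to 0.98), or 1.57-fold higher. Of all genes with at least 100 reads, 98.1% had a lower ratio. A pseudogene on the opposite strand, 4931440P22Rik, overlaps exons of Tiparp and took 4 reads of MHs and 14 of SHs. Tiparp thus had a ratio opposite in sign to those of Ahr and of Cyp1a2. The ratio of Cyp1a1 was also negative but rested on 8 reads of MHs and 2 of SHs.

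**Figure D2:**
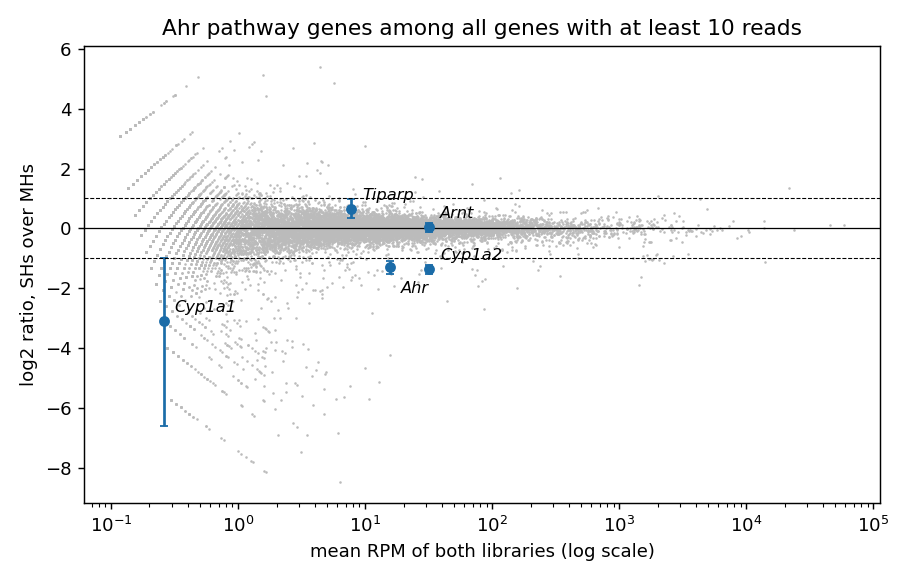
The log2 ratio of SHs over MHs against the mean RPM of both libraries (log axis) for all 15521 genes with at least 10 reads (grey), with the 5 members that passed this minimum in blue and their 95% intervals. Dashed lines mark a 2-fold difference. Ahr (-1.30) and Cyp1a2 (-1.37) lie under the band of genes with similar levels, Arnt (0.04) lies within it, Tiparp (0.65) lies near its upper edge, and the interval of Cyp1a1 spans from -6.59 to -0.99.

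Ratios of 2 genes within a library do not depend on how the libraries were scaled. For each read of Ahr there were 0.270 reads of Tiparp in MHs and 1.04 in SHs, a 3.87-fold difference (2.96 to 5.07). Against Cyp1a2, Tiparp went from 0.130 to 0.528 reads, a 4.05-fold difference (3.17 to 5.20). The difference between the targets was therefore larger than counting error, without a replicate to show how far it exceeds the spread between preparations. Set against Hnf4a, a transcription factor that defines hepatocytes and had a log2 ratio of 0.04, the log2 change was -1.34 (-1.54 to -1.13) for Ahr, -1.40 (-1.55 to -1.25) for Cyp1a2, 0.01 (-0.14 to 0.16) for Arnt and 0.62 (0.30 to 0.93) for Tiparp.

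Levels of different genes were compared per length, as reads per kilobase of annotated exon and 1000000 counted reads (RPKM). In MHs, Cyp1a2 was highest with 22.9 RPKM (21.3 to 24.5), followed by Arnt with 3.88 (3.56 to 4.23), Ahr with 3.61 (3.26 to 3.995), Tiparp with 1.38 (1.12 to 1.67) and Cyp1a1 with 0.169 (0.0730 to 0.333). Of these neighbours, only Arnt and Ahr had overlapping intervals. In SHs the order was Cyp1a2 with 8.88 RPKM (8.26 to 9.53), Arnt with 3.998 (3.79 to 4.22), Tiparp with 2.17 (1.96 to 2.39), Ahr with 1.47 (1.32 to 1.62) and Cyp1a1 with 0.0169 (0.00205 to 0.0612). Tiparp and Ahr thus changed places between the libraries. The level of Arnt relative to Ahr depended on the length used, being 1.08 in MHs by all annotated exons and 1.79 by the longest transcript.

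Many other genes take part in the pathway, and 58 of them were examined in 6 lists. Of the 49 with at least 10 reads, 23 were lower and 26 higher in SHs. The interval lay under 0 for 14 (28.6%) and over 0 for 15 (30.6%), beside the 15.5% and 16.8% of all genes. Of the 49 genes, 2 were at least 2-fold lower with an interval under 0, Cd36 and Fgf21, beside 4.46% of all genes. Npas4 was the 1 gene at least 2-fold higher with an interval over 0, beside 2.00% of all genes. At this threshold the pathway genes were close to the background set by a minimum of 10 reads. That background was not matched for depth. With the minimum raised to 100 reads, its shares were smaller, 1.17% for lower and 0.558% for higher. Cd36 passes the raised minimum, with 181 reads in MHs and 117 in SHs, whereas Fgf21 and Npas4 do not. Shares of intervals under or over 0 also depend on depth and were not matched for it in any list.

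The chaperone complex that holds the receptor in the cytoplasm had 4 genes, with a median log2 ratio of -0.05. Hsp90ab1 was at 504 RPM in MHs and 555 in SHs, and Hsp90aa1 at 66.5 and 58.3. Ptges3, the p23 co-chaperone, had a log2 ratio of 0.04 (-0.11 to 0.19). No gene of this complex was 1.5-fold different in either direction.

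The receptor belongs to the bHLH-PAS proteins, of which 10 of 16 relatives had at least 10 reads, with a median log2 ratio of 0.02. Hif1a and Epas1, the oxygen-sensing proteins that also pair with Arnt, had log2 ratios of 0.11 (-0.04 to 0.27) and 0.14 (0.06 to 0.23). The intervals of both lay far above that of Ahr, while Hif3a, Npas1, Npas3, Sim1 and Sim2 had too few reads for a ratio. Among the clock proteins of the family, Clock had -0.11 (-0.22 to 0.01), Per2 had 0.41 (0.22 to 0.60) and Per3 had -0.60 (-0.96 to -0.22). Npas4, an activity-regulated gene best known from neurons, rested on few reads, 4 of MHs and 36 of SHs, and its ratio was 1.70 (0.37 to 3.80). Arnt2, the paralog of Arnt, was at 0 reads in MHs and 2 in SHs.

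The 12 coregulators had a median log2 ratio of 0.11, and the lowest was Ep300, a histone acetyltransferase, with -0.17. Ncoa1, Ncoa2 and Ncoa3, coactivators of nuclear receptors and of Ahr, had log2 ratios of 0.09, 0.12 and 0.18 with intervals that included 0. Ddb1, which works with Cul4b in a ubiquitin ligase to which Ahr can bind, had 0.23 (0.17 to 0.28).

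Tryptophan is broken down to kynurenine and related compounds that can bind the receptor, and the 8 genes of this route with at least 10 reads had a median log2 ratio of 0.05. Tdo2, which opens the route in hepatocytes, was at 1284 RPM in MHs and 1343 in SHs. Ido2 had a log2 ratio of -0.07 (-0.17 to 0.03), and Kynu, which cleaves kynurenine, had 0.17 (0.10 to 0.25). Ido1 had 1 read in MHs and 0 in SHs. The genes that pass electrons to P450 enzymes were split. Por, the main reductase, had a log2 ratio of -0.38 (-0.45 to -0.32), and Cyb5a had -0.30 (-0.34 to -0.26), whereas Cyb5r3 had 0.31 (0.26 to 0.36). These 3 ratios were smaller in size than that of Cyp1a2.

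The other genes that are known as targets of the receptor did not share a single ratio. Of 14 genes, 12 had at least 10 reads, 7 with an interval under 0 and 1 with an interval over 0, beside the 15.5% and 16.8% of all genes. Their median log2 ratio was -0.23. Nqo1, a quinone reductase, was covered by 43 reads of MHs and 113 of SHs, which gave 0.06 (-0.44 to 0.62). Nfe2l2, the regulator of the oxidative stress response, had 0.02 (-0.11 to 0.16). Aldh3a1, an aldehyde dehydrogenase that is strongly induced by dioxin, and Cyp2s1 had 0 reads in either library.

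The glucuronosyltransferases Ugt1a6a and Ugt1a6b had log2 ratios of -0.66 (-1.03 to -0.27) and -0.21 (-0.35 to -0.08). Since genes of the Ugt1a locus share exons, the division of their reads is uncertain. The glutathione transferases Gsta1 and Gsta2 are close paralogs and had 0.21 (-0.10 to 0.53) and 0.65 (0.50 to 0.81), the latter with 26.4 RPM in MHs and 41.6 in SHs. At the low end, Cd36, a fatty acid transporter, was covered by 181 reads of MHs and 117 of SHs, which gave -1.95 (-2.30 to -1.60). Fgf21, a hormone of the fasted liver, had 26 and 32 reads and a ratio of -1.02 (-1.81 to -0.21). Socs2, a suppressor of cytokine signalling, had -0.73 (-1.06 to -0.39). In the promoter windows, GCGTG was found for 4 of the 10 genes of this list with a RefSeq entry, beside 28.2% of all windows. With 10 genes this count is close to that share.

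The low ratios of Ahr and Cyp1a2 were seen together with those of other genes. The 20 pericentral genes, which mark hepatocytes near the central vein, were all lower in SHs with intervals under 0, and 17 were at least 2-fold lower. Their median log2 ratio was -1.91, and their summed level was 4614 RPM in MHs and 1649 in SHs. Of these genes, 15 had a lower ratio than Cyp1a2. Cyp1a2 had 0.308 reads for each read of Glul, the glutamine synthetase of the innermost pericentral cells, in MHs and 0.764 in SHs, a 2.48-fold difference (2.19 to 2.81). Against Cyp2e1, an ethanol-oxidizing P450 with a wider pericentral pattern, the difference was 1.44-fold (1.30 to 1.59). Ahr stood in the same relation, with a 2.60-fold difference against Glul (2.21 to 3.06) and a 1.503-fold difference against Cyp2e1 (1.30 to 1.73). Cyp1a2 and Ahr were thus lower in SHs by less than either of these pericentral genes. The 19 periportal genes had a median log2 ratio of 0.32, and 18 of them had an interval over 0.

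Ahr is also expressed outside hepatocytes, and the SHs alone were sorted against CD31 and CD45. All 10 endothelial markers were at least 2-fold lower in SHs, with a summed level of 96.2 RPM in MHs and 4.46 in SHs, and Lyve1 had 0 reads in SHs. The 7 macrophage markers with at least 10 reads were likewise lower, with a sum over 8 genes of 18.8 RPM in MHs and 0.472 in SHs, and Marco had 0 reads in SHs. For the stellate list, all 9 markers that passed the minimum of reads were more than 2-fold lower, with a sum over 10 genes of 26.7 RPM in MHs and 2.76 in SHs, and none was at 0 in SHs. Of 7 lymphocyte markers, only Ptprc, the gene of CD45, had at least 10 reads. The list summed to 0.530 RPM in MHs against 0.165 in SHs. Ptprc made up the whole sum of MHs with 9 reads, and it was counted 5 times in SHs. No other marker of this list was counted in MHs, whereas Cd79a and Nkg7 took 1 read each of SHs. A difference in lymphocyte RNA therefore cannot be read from these sums. The 7 cholangiocyte markers summed to 13.96 RPM in MHs and 14.4 in SHs. The part of these other cells and of pericentral cells in the ratios of Ahr, Cyp1a2, Cyp1a1, Tiparp and Cd36 was not tested.

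**Figure D3:**
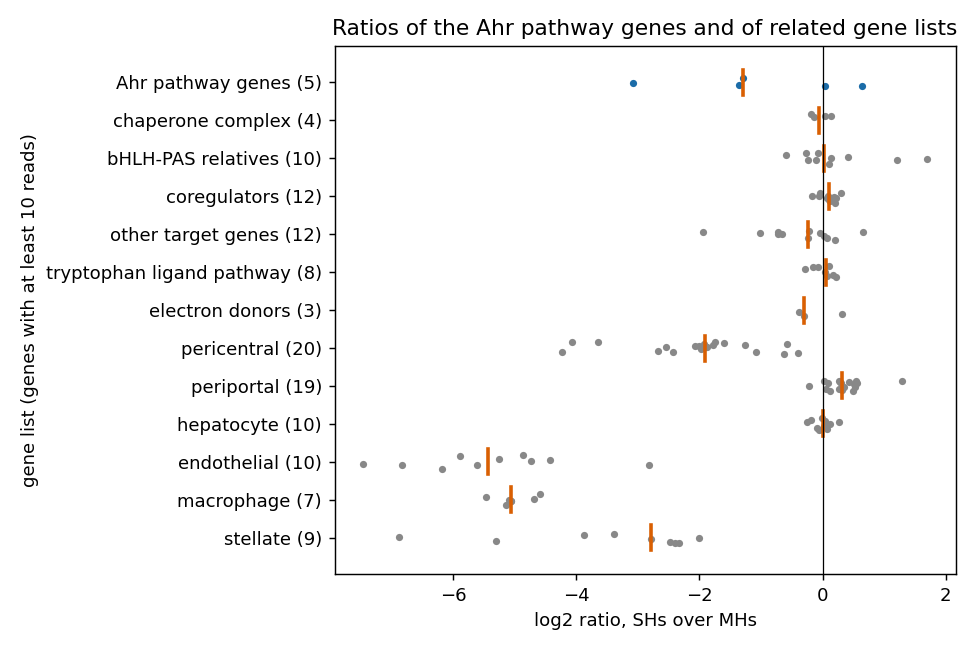
The log2 ratio of SHs over MHs for each gene with at least 10 reads in 13 lists, with the number of genes in brackets and the median of each list as an orange bar. The members (blue) are spread from -3.08 to 0.65, the chaperones, coregulators and tryptophan genes lie around 0, and the pericentral, endothelial, macrophage and stellate lists lie wholly under 0.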

How the data were processed

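RNA-seq was performed on 1 library of MHs and 1 library of SHs. The authors deposited whole read counts per gene symbol, with no scaling. Per the methods, trimmed reads were mapped to mm10 in CLC Genomics Workbench, with at most 10 hits per read, and expressed as RPKM. The program and annotation behind the deposited counts are not given in the sources used here, so that the division of reads between paralogs or overlapping genes is unknown.

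Counts were scaled by the library total, 16979136 reads in MHs and 42356444 in SHs. Ratios, with 0.5 reads added, and exact intervals were computed in Python 3.11.15 with scipy 1.17.1. Genes with fewer than 10 reads over both libraries got no call. Ratios of gene pairs have exact conditional 95% intervals of the odds ratio, or large-sample intervals where the second gene was Cyp2e1 or Hnf4a. Exon lengths came from GENCODE M21 and promoters from RefSeq. The calculation was tested on simulated data. Alternatives were edgeR's TMM (4.0.16) and DESeq2's size factors (1.42.0), a total that leaves out the 10 most counted genes, a prior of 2 reads, no minimum or a minimum of 100 reads, a 1.5-fold threshold, another gene length and a longer motif.

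All 7 members are named. From the pathway lists, any gene with at least 10 reads could be named, and from the zone and cell type lists the extremes, Glul, Cyp2e1 and defining markers. Pathway genes with fewer reads, namely Aldh3a1, Cyp2s1, Arnt2, Ido1, Hif3a, Npas1, Npas3, Sim1 and Sim2, and the overlapping genes were named after their values were seen. Some genes of the lists enter the counts and medians and are not reported here by name. Members and lists were chosen with earlier results of these data known. No gene was sought for a similar pattern, since each gene has only 1 ratio.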

Additional observations from a re-analysis of the deposited data

How the results depend on the processing

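No paired analysis was possible because SHs and MHs had only 1 library each. Of 113 values recomputed under the alternatives, 108 stayed within their counting interval or, for counts of genes, within 1.5 times. For the median of a list, the interval was that of the gene closest to the median and not of the median itself. Other scalings shifted all log2 ratios alike, by at most 0.03, so that the ratio of Ahr lay between -1.29 and -1.27, that of Cyp1a2 between -1.36 and -1.33, that of Arnt between 0.05 and 0.07 and that of Tiparp between 0.66 and 0.68. With a threshold of 1.5-fold, 1 member, Tiparp, was called higher in SHs in place of 0. With at least 100 reads, the pericentral median was -1.82, since 4 genes with few reads were left out. With the longest transcript as length, the level of Arnt relative to that of Ahr was 1.79 in MHs and 4.54 in SHs, in place of 1.08 and 2.73. With TNGCGTG in place of GCGTG, 1 member had a match in place of 5.

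Depth limits Cyp1a1, Cyp1b1 and Ahrr, for which 10, 1 and 0 reads were counted over both libraries. With 1 library of each kind, no alternative bears on the spread between preparations.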
